A study of Mus musculus with 18 samples.

Results

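Fatty acid synthesis and desaturation were followed through 10 genes chosen by name: Acly, Me1, Acaca, Acacb, Fasn, Elovl6, Scd1, Scd2, Fads1 and Fads2. All 10 were found among the 25209 gene names listed in each of 18 RNA-seq libraries, each at 1 position of the mm9 mouse build, and all 10 passed the filter on low values that left 12695 tested genes. The libraries came from 3T3-L1 cells, an established mouse fibroblast line whose confluent cells turn into fat cells when induced, and sequenced polyadenylated RNA. They fell into 6 groups of 3. Control is described only by that name, in a series that covers cells before and during adipogenesis. MCE1 and MCE2 are not spelled out in the labels (the abbreviation is used in this field for mitotic clonal expansion, the divisions that follow induction), and no hour is given for them. Day4, Day6 and Day8 are 4, 6 and 8 days after the differentiation stimulus, with the start of that count not stated. The protocol given for every group put cells 2 days past confluence into 10 µg/mL insulin, 0.25 µM dexamethasone (a glucocorticoid) and 0.5 mM IBMX (a phosphodiesterase inhibitor) for 48 h, followed by 5 µg/mL insulin. All groups are of 1 cell line, and the labels do not say whether the libraries of a group are separate cultures, so p-values measure the spread between these libraries only.

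Fat cells make fatty acids from glucose carbon that leaves the mitochondrion as citrate. ATP-citrate lyase (Acly) splits citrate into acetyl-CoA, the acetyl-CoA carboxylases (Acaca and Acacb) turn acetyl-CoA into malonyl-CoA, and fatty acid synthase (Fasn) joins these units into palmitate at the cost of NADPH, part of which malic enzyme (Me1) provides. Elovl6 lengthens palmitate to stearate, the stearoyl-CoA desaturases (Scd1 and Scd2) place the first double bond in saturated acyl chains, and Fads1 and Fads2 desaturate polyunsaturated fatty acids.

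Levels are in TPM, a share of each library's transcripts that is scaled for transcript length, so levels of different genes in 1 library can be set side by side, and values after ± are SDs over 3 libraries (n = 3). A change is a log2 fold change of TPM + 1 from limma, which understates the change of genes with few TPM, and a gene is said to rise or fall only at an adjusted p under 0.05 over all 12695 tested genes. Read depth is unknown, because TPM keeps none. In bulk RNA, fewer cells of a type and less RNA per cell cannot be told apart. Some libraries lay at the edge of their group: Day6 replicate 2 held the highest Day6 value of 10 of the 10 genes, beside 50.1% of all tested genes, and Day8 replicate 3 held the lowest Day8 value of 8 of the 10, beside 39.5%. Replicate 3 of Control, MCE2 and Day4 each held the group's highest value of 7 of the 10 genes, beside 44.4, 32.4 and 41.8%. So did Day8 replicate 2 (44.5%). Control replicate 1 and Day6 replicate 3 each held the lowest of 7 (42.1 and 34.8%). Calls that change when Day6 replicate 2 or Day8 replicate 3 is left out are named below.

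The summed level of the 10 genes was 1390 ± 39.2 TPM in Control and 1352 ± 8.98 TPM at MCE1, and then 2256 ± 80.1 at MCE2, 2481 ± 134 at Day4, 6295 ± 727 at Day6 and 8698 ± 891 at Day8. Most of the later sum came from the stearoyl-CoA desaturases: Scd1 and Scd2 together held 40.6% ± 0.476 of it in Control and 83.9% ± 0.372 at Day8. The genes did not share 1 course. Scd1 was higher in each group than in the one before. Me1, Fads1 and Fads2 stood below Control at both MCE stages and above it at Day8. By group means, Fasn and Scd2 had a first high at MCE2, Acly and Acaca were lowest at Day4, and Elovl6 was highest in Control. The steps from MCE2 to Day4 were not called for Fasn and Acaca.

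**Figure D1:**
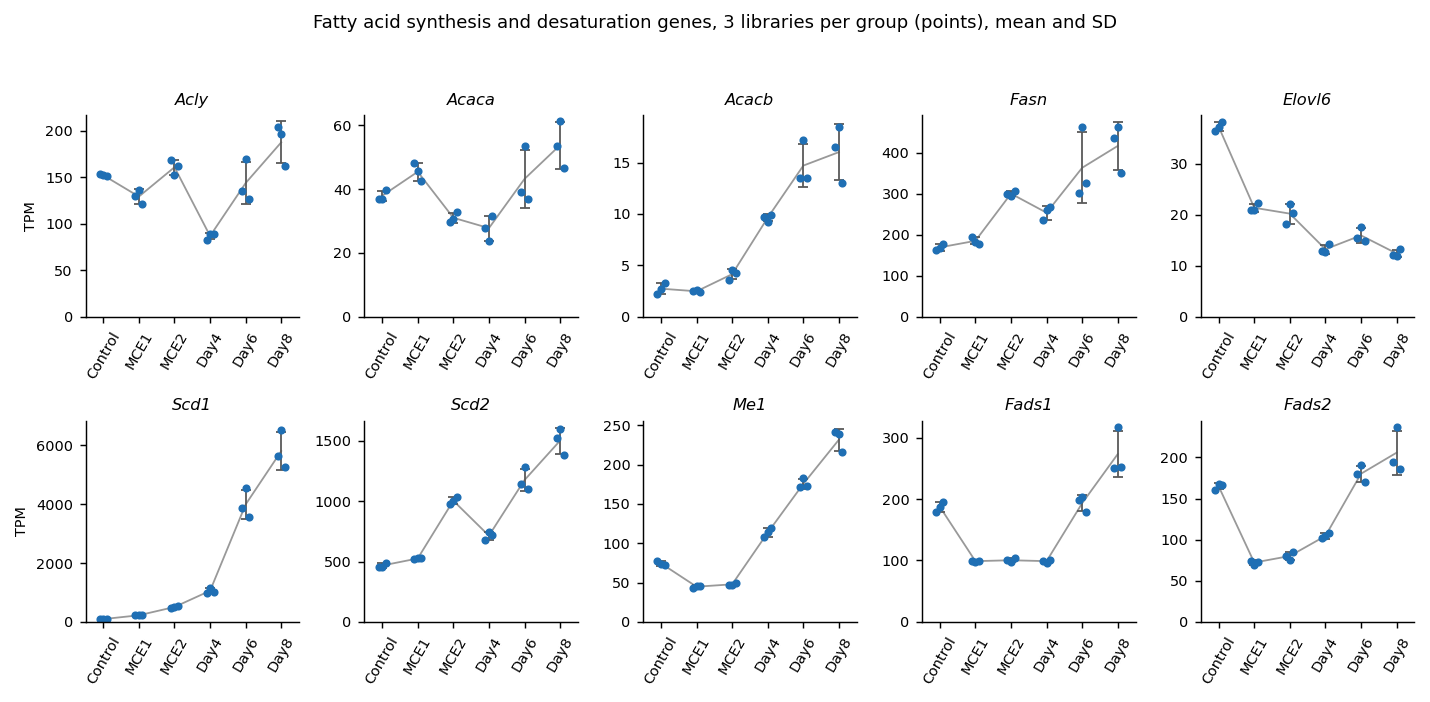
TPM (y axis, linear from 0, a scale of its own for each gene) of the 10 genes in the 6 groups (x axis). Points are the 3 libraries of a group, the grey line joins group means and bars are ± 1 SD. Scd1 runs from a mean of 97.0 TPM in Control to 5799 at Day8, whereas Elovl6 runs from 37.3 down to 12.4.

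Differences between groups were tested for 5 comparisons with Control and 5 between later groups, and the F test over the 6 group means passed for 10 of the 10 genes (87.6% of all tested genes passed it). At MCE1, 2 of the 10 genes were higher than in Control and 4 lower, with 51.4% of all tested genes called (22% higher and 29.4% lower). At MCE2 it was 4 higher and 4 lower (62.5% of all genes called, 23.4% higher and 39.1% lower), and at Day4 5 higher and 5 lower (69% called, 29.7% higher and 39.3% lower). At Day6, 5 were higher than in Control and 1 lower (69.7% called, 30.2% higher and 39.4% lower), and at Day8 9 were higher and 1 lower (71.4% called, 31.7% higher and 39.7% lower). The MCE1 counts, the number lower at MCE2 and the total called at Day6 lie near the shares of all genes. None of these counts was tested against the shares. The median change of the 10 against Control was -0.16, -0.10, 0.07, 0.62 and 0.91 in this order of groups, beside -0.06, -0.17, -0.11, -0.12 and -0.11 for all tested genes. Median-ratio scaling between libraries brought the all-gene medians from MCE2 to Day8 to between -7.72e-05 and 0.02, turned no call among the 10 genes, and raised the genes called higher at Day6 from 5 to 8 by adding Acaca, Fads1 and Fads2. With that scaling the share of higher genes among all genes called went from 42.9 to 54.1% at MCE1 and from 37.4 to 50% at MCE2. At Day6 it went from 43.4 to 51.2%, and the number of all tested genes called higher there from 3837 to 4513.

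Between neighbouring groups the broadest step was that from Day4 to Day6. All 10 genes were higher at Day6 than at Day4, where 25.7% of all tested genes were called and 14.5% were higher, and the median difference was 0.67 for the 10 and 0.02 for all genes. Leaving out any 1 library of these groups kept 9 or 10 of the 10 calls. A fit on the 6 libraries of these groups alone did not call Fasn or Elovl6. From MCE1 to MCE2, 5 genes rose and 1 fell (42.8% of all genes called, 17.7% higher and 25.2% lower). Median-ratio scaling and quantile normalization each raised the number that rose in this step to 7. Of all tested genes, 2758 and 2757 rose in it with these scalings, rather than 2242. From MCE2 to Day4, 4 rose and 3 fell (51.6% called, 29.6% higher and 22% lower). From Day6 to Day8, 5 rose and 1 fell (21.7% called, 10.1% higher and 11.6% lower), and between Day4 and Day8, 9 rose and 0 fell (0 also at an unadjusted p under 0.05 in limma, with 44.8% of all genes called, 23.2% higher and 21.6% lower), with Elovl6 not called (-0.09, adjusted p = 0.437). Comparisons with Control share the Control libraries, and neighbouring steps share a group, so their counts are not independent of each other.

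**Figure D2:**
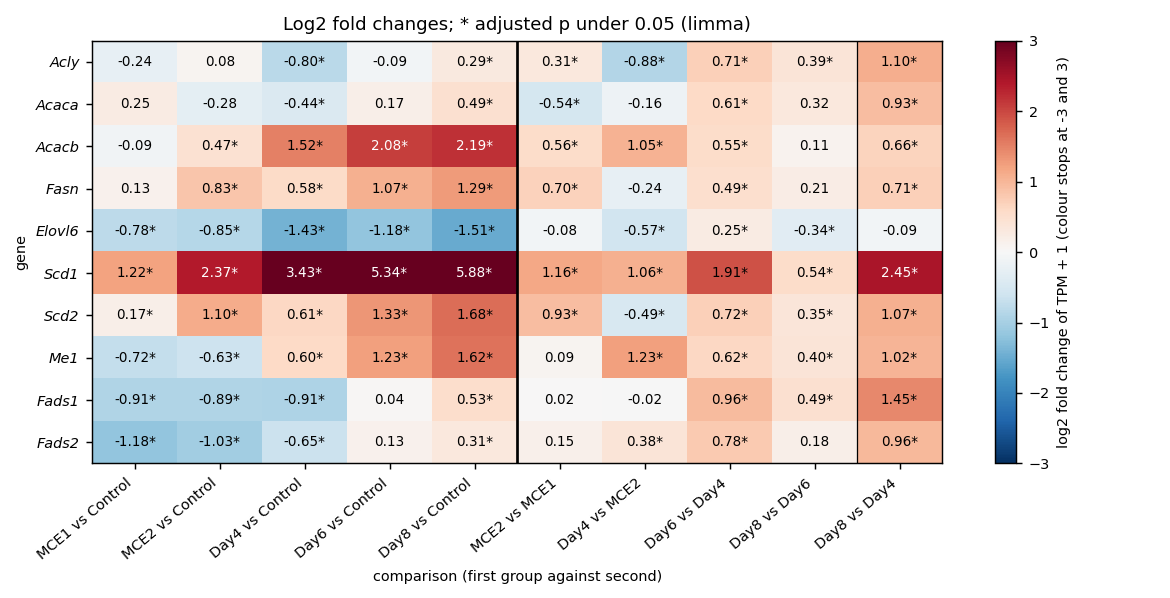
Log2 fold changes of TPM + 1 (cell colour and printed value) for each gene (rows) in the 10 comparisons (columns, first group against second), with the 5 comparisons with Control to the left of the thick line. Asterisks mark an adjusted p under 0.05. The Day6 vs Day4 column is positive and marked in 10 of 10 rows, and the Elovl6 row is negative in all 5 comparisons with Control.

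Acly, which supplies cytosolic acetyl-CoA (chromosome 11, 100337666 to 100389314), was lowest at Day4 and highest at Day8. It read 153, 152 and 151 TPM in Control, 129.5, 137 and 122 at MCE1 and 168, 152 and 162 at MCE2. The Day4 libraries read 82.8, 89.1 and 88.8 TPM, those of Day6 135, 169.6 and 127 and those of Day8 204, 197 and 162. Every Day4 library thus stood below every other library of the series, and the Day8 libraries stood above those of Control. Acly was lower at Day4 than in Control (log2 fold change -0.80, SE 0.097, adjusted p = 1.79e-06) and than at MCE2 (-0.88, SE 0.097, adjusted p = 1.55e-06), and rose from Day4 to Day6 (0.71, SE 0.097, adjusted p = 5.24e-05). Its rise from Control to Day8 was smaller (0.29, SE 0.097, adjusted p = 0.0129) and was not called without Day8 replicate 1 (0.23, adjusted p = 0.0652). The rise from MCE1 to MCE2 (0.31) was not called without MCE1 replicate 3 or without MCE2 replicate 1, nor that from Day6 to Day8 (0.39) without Day6 replicate 3 (0.30) or in a fit on the 6 libraries of these groups alone. Acly was not called at MCE1 or MCE2 against Control (-0.24 and 0.08), but was called lower at MCE1 with a filter of 5 TPM, quantile normalization, the replicate block or the 6 libraries alone (-0.31 to -0.24) and higher at MCE2 after median-ratio scaling (0.28). The difference between Day6 and Control (-0.09) was called lower (-0.22) without Day6 replicate 2.

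Me1, the cytosolic malic enzyme that yields NADPH (chromosome 9, 86474970 to 86589947), fell at the MCE stages and rose at every step after MCE2. Its libraries read 77.8, 73.4 and 72.0 TPM in Control, 42.5, 46.1 and 45.7 at MCE1 and 47.0, 46.7 and 49.7 at MCE2. They read 107, 114 and 119 at Day4, 172, 182 and 172 at Day6 and 241, 239 and 215 at Day8. No range of 1 group overlapped that of another, in the order MCE1, MCE2, Control, Day4, Day6 and Day8, although the neighbours MCE1 and MCE2 did not pass the test (0.09, adjusted p = 0.217). That step was called higher after median-ratio scaling and after quantile normalization (0.17 to 0.19, limma adjusted p = 0.0109 to 0.0198). Against Control the fall at MCE1 was -0.72, SE 0.057, adjusted p = 2.71e-08, and the rise at Day8 was 1.62, SE 0.057, adjusted p = 4.14e-13. The step from MCE2 to Day4 (1.23, adjusted p = 1.2e-10) was larger than those from Day4 to Day6 (0.62) and from Day6 to Day8 (0.40), all 3 of them called. The highest group mean was 5.17 times the lowest. Of the 50-base stretches of the longest Me1 transcript in the GENCODE M21 annotation, 26.5% also occur in transcripts of Gm7049 or Gm7329, so its level is uncertain as far as reads were split between them. Neither Gm7049 nor Gm7329 has a TPM of its own among the genes used here.

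The 2 acetyl-CoA carboxylases differed in level and in course. Acaca, the cytosolic form whose malonyl-CoA feeds chain synthesis (chromosome 11, 84008940 to 84215153), read 37.1, 37.0 and 39.7 TPM in Control, 48.2, 45.7 and 42.5 at MCE1 and 29.6, 30.8 and 32.8 at MCE2. It read 27.9, 23.8 and 31.7 at Day4, 39.0, 53.7 and 37.0 at Day6 and 53.6, 61.3 and 46.6 at Day8. The Day6 libraries spread widely (SD 9.11 TPM) and overlapped those of Control and of Day8. Those of Day4 overlapped those of MCE2, and that difference was not called (-0.16, limma adjusted p = 0.322). Acaca was lower at Day4 than in Control (log2 fold change -0.44, SE 0.13, adjusted p = 0.00675) and higher at Day8 (0.49, SE 0.13, adjusted p = 0.00345). It fell from MCE1 to MCE2 (-0.54, SE 0.13, adjusted p = 0.00345) and rose from Day4 to Day6 (0.61, SE 0.13, adjusted p = 0.00264). Its difference between Day8 and Day6 (0.32, adjusted p = 0.094) was called without Day6 replicate 2 (0.48, adjusted p = 0.00968) or without Day8 replicate 3 (0.42, adjusted p = 0.0476). Its difference between MCE1 and Control (0.25) was not called, but was after either other scaling or in a fit on the 6 libraries alone (0.25 to 0.37), and that fit also called it lower at MCE2 (-0.28). The pseudogene Gm5182 holds 52.6% of the 50-base stretches of the longest Acaca transcript, so reads of the 2 may have been shared. Gm5182 has no TPM of its own among the genes used here.

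Acacb, the form at the mitochondrial outer membrane whose malonyl-CoA restrains fatty acid import for oxidation (chromosome 5, 114615527 to 114700767), was a low-level gene that rose through Day6. Its libraries read 2.22, 2.73 and 3.24 TPM in Control, 2.46, 2.60 and 2.36 at MCE1 and 3.62, 4.59 and 4.22 at MCE2. Later ones read 9.74, 9.26 and 9.94 at Day4, 13.5, 17.2 and 13.5 at Day6 and 16.6, 18.5 and 13.0 at Day8. Control and MCE1 overlapped, as did Day6 and Day8, and the other neighbours in the order of means did not. The rise over Control was called from MCE2 (log2 fold change 0.47, SE 0.14, adjusted p = 0.00731) and reached 2.19, SE 0.14, adjusted p = 5.29e-10 at Day8. As a share of the summed TPM of both carboxylases, Acacb held 5.64, 6.87 and 7.54% in the Control libraries, 11.8% ± 1.09 at MCE2, 25.9% ± 2.08 at Day4 and 23.6, 23.1 and 21.9% in those of Day8. The difference of 16.2 percentage points between Day8 and Control had a 2-sided exact permutation p = 0.1, the smallest that 3 against 3 libraries can give.

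Fasn, which builds palmitate (chromosome 11, 120667272 to 120685861), rose between MCE1 and MCE2 and again between Day4 and Day6. It read 162, 167 and 178 TPM in Control, 194, 183 and 177 at MCE1 and 300.0, 294 and 306 at MCE2. It then read 235, 259.6 and 266 at Day4, 301, 463 and 326 at Day6 and 436, 463 and 350.4 at Day8. Control and MCE1 overlapped, and the Day6 libraries, with a coefficient of variation of 23.9%, overlapped both MCE2 and Day8. The MCE2 step was 0.70, SE 0.13, adjusted p = 0.000334. Between MCE2 and Day4 the libraries did not overlap, but the difference was not called (-0.24, adjusted p = 0.121). It was called lower after median-ratio scaling (-0.30) and in a fit on those 6 libraries alone. The step from Day4 to Day6 (0.49, SE 0.13, adjusted p = 0.00905) was not called in a fit on its 6 libraries alone (adjusted p = 0.0700), and that from Day6 to Day8 (0.21, adjusted p = 0.26) was called without Day6 replicate 2 (0.40). Against Control, Fasn was higher by 1.29 at Day8, and its mean ranked 921 among all genes by TPM in Control and 349 at Day8.

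Elovl6, which lengthens palmitate (chromosome 3, 129235304 to 129341411), was the 1 gene of the 10 that was lower than Control in all 5 later groups. Its libraries read 36.5, 37.2 and 38.2 TPM in Control, 21.0, 20.9 and 22.2 at MCE1 and 18.3, 22.2 and 20.3 at MCE2. They read 12.8, 12.6 and 14.3 at Day4, 15.4, 17.7 and 14.8 at Day6 and 12.0, 12.0 and 13.2 at Day8. Every Control library stood above every other library. The fall was -0.78, SE 0.085, adjusted p = 1.19e-06 at MCE1 and -1.51, SE 0.085, adjusted p = 1.3e-10 at Day8, where the Control mean was 3.01 times the Day8 mean. It fell further from MCE2 to Day4 (-0.57, SE 0.085, adjusted p = 3.59e-05). The small rise from Day4 to Day6 (0.25, SE 0.085, adjusted p = 0.0423) was not called without Day4 replicate 1, Day4 replicate 2, Day6 replicate 1 or Day6 replicate 2 (0.18, adjusted p = 0.166, without the last), nor in a fit on the 6 libraries alone, which also ended the call of the fall from Day6 to Day8 (-0.34).

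Scd1, a desaturase that makes oleate and palmitoleate from saturated acyl-CoA (chromosome 19, 44468940 to 44482199), rose at each step and changed most among the 10 genes. The Control libraries read 94.2, 94.8 and 102 TPM, those of MCE1 225, 226 and 228 and those of MCE2 475, 499.9 and 547. At Day4 they read 990.4, 1162 and 1022 TPM, at Day6 3869, 4531 and 3569.8 and at Day8 5621, 6513 and 5263. No range of 1 group overlapped another. The Day8 mean was 59.8 times that of Control (log2 fold change 5.88, SE 0.090, adjusted p = 2.86e-17). Its largest step was that from Day4 to Day6 (1.91, SE 0.090, adjusted p = 1.08e-09). By mean TPM Scd1 ranked 1741 among all genes in Control, 678 at MCE1, 251 at MCE2, 127 at Day4, 7 at Day6 and 4 at Day8. Its rise from Day6 to Day8 (0.54, SE 0.090, adjusted p = 0.000559) was not called after quantile normalization (0.23, adjusted p = 0.0503).

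Scd2, a related desaturase of the same gene cluster (chromosome 19, 44368166 to 44381352), was the highest of the 10 genes in Control. It read 455, 459 and 488 TPM there, 521, 528 and 529.6 at MCE1 and 977, 998 and 1038 at MCE2. At Day4 it read 678, 742 and 725, at Day6 1141, 1282 and 1103 and at Day8 1528, 1595 and 1384 TPM. Groups did not overlap, and Day4 lay between MCE1 and MCE2. Scd2 rose from MCE1 to MCE2 (0.93, SE 0.060, adjusted p = 4.7e-09), fell to Day4 (-0.49, SE 0.060, adjusted p = 5.11e-06) and rose to Day6 (0.72, SE 0.060, adjusted p = 3.9e-07) and Day8 (0.35). Its small rise at MCE1 (0.17, SE 0.060, adjusted p = 0.0258) was not called without Control replicate 1, Control replicate 2, MCE1 replicate 2 or MCE1 replicate 3, nor after quantile normalization or with plain moderation.

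Scd2 was the more abundant of the pair through MCE2, and Scd1 from Day4 onwards. The Scd1 share of the summed TPM of both was 17.1, 17.1 and 17.3% in the Control libraries and 30.1% ± 0.107 at MCE1, 33.5% ± 0.906 at MCE2, 59.6% ± 1.28 at Day4, 77.2% ± 0.774 at Day6 and 78.6, 80.3 and 79.2% in the Day8 libraries. The share was higher in every Day8 than in every Control library, by 62.2 percentage points between means (2-sided exact permutation p = 0.1, the smallest possible with 3 against 3). Of the 50-base stretches of the longest Scd1 and Scd2 transcripts, 4.66 and 4.01% also occur in another gene, the Scd family included, so a small part of the reads of each may have been assigned to the other.

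**Figure D3:**
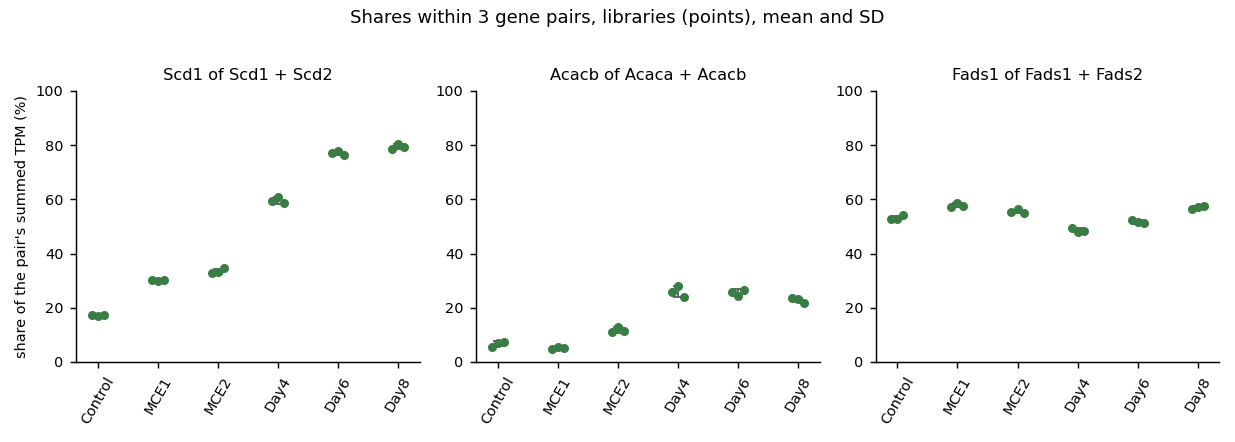
Share of the summed TPM of a gene pair held by its first gene (y axis, percent from 0 to 100) in the 6 groups (x axis), for Scd1 of Scd1 and Scd2, Acacb of Acaca and Acacb, and Fads1 of Fads1 and Fads2. Points are libraries and bars are mean ± 1 SD. The Scd1 share passes from 33.5% at MCE2 to 59.6% at Day4, while the Fads1 share stays between means of 48.6 and 57.8%.

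Fads1 and Fads2, genes of 1 cluster on chromosome 19 for desaturases of polyunsaturated fatty acids, were lower than Control at both MCE stages and at Day4, and rose from Day4 to Day6. Fads1 (chromosome 19, 10257378 to 10271362) read 179, 187 and 196 TPM in Control, 99.6, 98.0 and 99.1 at MCE1 and 101, 97.1 and 104 at MCE2. At Day4 it read 99.7, 96.1 and 101, at Day6 198, 203 and 178 and at Day8 250.3, 317 and 253 TPM. The MCE1, MCE2 and Day4 libraries overlapped each other, all below those of Control, and Day6 overlapped Control. Its change was -0.91, SE 0.075, adjusted p = 4.08e-08 at MCE1, 0.96, SE 0.075, adjusted p = 2e-07 from Day4 to Day6 and 0.53, SE 0.075, adjusted p = 9.35e-06 at Day8 against Control.

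Fads2 (chromosome 19, 10137255 to 10175993) read 161, 168 and 166 TPM in Control, 74.5, 68.9 and 73.2 at MCE1 and 80.7, 75.3 and 84.5 at MCE2. It read 101, 104 and 108 at Day4, 179.7, 190.3 and 171 at Day6 and 194, 236 and 186 at Day8. Unlike Fads1, its Day4 libraries stood above those of MCE2 (0.38, SE 0.074, adjusted p = 0.000491), though the difference between the 2 genes in this step was not tested. The fall at MCE1 was -1.18, SE 0.074, adjusted p = 1.55e-09, the rise from Day4 to Day6 0.78, SE 0.074, adjusted p = 1.48e-06 and the rise at Day8 over Control 0.31, SE 0.074, adjusted p = 0.00146. Fads1 held 53.2% ± 0.802 of the pair's TPM in Control, 57.8% ± 0.797 at MCE1, 48.6% ± 0.835 at Day4 and 57.0% ± 0.656 at Day8. At Day6 neither differed from Control by the test (Fads1 0.04, Fads2 0.13), whereas both were called higher there after median-ratio scaling (0.19 and 0.28). Between Day6 and Day8 Fads2 was not called (0.18, adjusted p = 0.0919), but was called higher without Day8 replicate 3 (0.25, adjusted p = 0.0314). From MCE1 to MCE2 it was called higher only after median-ratio scaling or quantile normalization (0.21 to 0.23, against 0.15).

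Over the 6 group means of log2(TPM + 1), the pair of these genes most alike was Fasn and Scd2 (Pearson's r 0.995 over 6 means, 0.974 over 18 libraries), followed by Acacb and Scd1 (0.964 and 0.958) and by Fads1 and Fads2 (0.950 and 0.949). The pair least alike was Elovl6 and Scd1 (-0.874 and -0.862). These values describe 6 points from the same libraries. Among 4794 genes with at least 10 TPM in the highest group and a range of at least 1 log2 unit, Scd2 was the closest to Fasn and Fasn the closest to Scd2. The 3 closest to Scd1 were Ces1f (0.999 over means, 0.998 over libraries), Scd3 (0.999 and 0.995) and Acad11 (0.999 and 0.997). For Acacb they were Vsir, Ndufa9 and Plekhf2 (each 0.999), for Me1 Morc4, Pon2 and Ogfod3 (0.995 to 0.997), for Elovl6 Ripk3, S100a11 and Nfyc (0.990 to 0.991), for Fads2 Met, Tmem184b and Dock11 (0.988 to 0.992), and for Fads1 Rnd1 (0.996), Tm7sf2 (0.982) and Hotairm2 (0.980). Acly and Acaca had weaker matches, led by Rhbdd1 (0.960) and Galns (0.921).

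The promoters of a few of these genes are shown because the genes they precede took different courses. Fasn had a first high mean at MCE2 and its highest at Day8, and Acly was lowest at Day4. Elovl6 fell from Control, and Fads2 was low at the MCE stages. RefSeq windows of the GRCm38.p6 build matched 7 of the 10 genes, and Scd1, Scd2 and Fads1 are named only. Each line gives the 250 bases before the start of transcription, 5′ to 3′ on the gene's strand: Fasn at chr11:120824548-120824797 (minus strand), Acly at chr11:100528001-100528250 (minus), Elovl6 at chr3:129532136-129532385 (plus) and Fads2 at chr19:10101504-10101753 (minus). Capitals mark matches, on either strand, to a CCAAT box (CCAAT) or a GC box (GGGCGG).
Fasn: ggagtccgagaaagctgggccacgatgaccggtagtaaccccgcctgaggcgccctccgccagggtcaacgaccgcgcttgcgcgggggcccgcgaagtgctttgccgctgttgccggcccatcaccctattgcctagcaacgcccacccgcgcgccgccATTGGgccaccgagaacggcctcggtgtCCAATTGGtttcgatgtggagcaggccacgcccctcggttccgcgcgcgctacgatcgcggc
Acly: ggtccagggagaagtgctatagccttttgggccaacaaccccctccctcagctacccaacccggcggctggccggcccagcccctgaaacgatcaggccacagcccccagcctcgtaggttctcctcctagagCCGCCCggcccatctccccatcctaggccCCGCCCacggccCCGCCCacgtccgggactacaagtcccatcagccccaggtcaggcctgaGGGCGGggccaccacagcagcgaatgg
Elovl6: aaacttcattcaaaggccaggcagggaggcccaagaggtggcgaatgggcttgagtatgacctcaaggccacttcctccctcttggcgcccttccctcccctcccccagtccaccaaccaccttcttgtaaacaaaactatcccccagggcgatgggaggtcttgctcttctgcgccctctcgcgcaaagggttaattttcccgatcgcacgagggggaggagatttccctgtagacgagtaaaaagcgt
Fads2: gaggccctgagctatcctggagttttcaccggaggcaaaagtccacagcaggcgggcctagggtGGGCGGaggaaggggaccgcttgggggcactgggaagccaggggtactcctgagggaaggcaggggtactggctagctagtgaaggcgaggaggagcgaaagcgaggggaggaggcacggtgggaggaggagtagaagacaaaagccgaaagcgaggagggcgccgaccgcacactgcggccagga
The Fasn window holds 3 CCAAT boxes, beginning 90, 62 and 59 bases before the start, of which the last 2 overlap on opposite strands. The Acly window holds 4 GC boxes (117, 88, 76 and 27 bases before the start), the Fads2 window 1 (186 bases before it) and the Elovl6 window neither motif. Among all 32851 windows of this length in the table, 33.8% hold CCAAT and 32.7% GGGCGG. A sterol response element (TCACNCCAC, in 1.05% of windows) and an E-box (CACGTG, in 6.02%) were also searched on both strands, and neither occurs in the windows of the 7 genes. A match is a run of letters and not a measured site, and no match says only that these letters are absent from this window.

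The carbon and NADPH supply around the pathway was covered by a list of 10 further genes, all tested. At MCE2, 7 were higher than in Control and 3 lower, and at Day8 7 were higher and 2 lower, with a median change of 1.19 at Day8, beside 23.4% of all tested genes higher and 39.1% lower at MCE2, and 31.7% and 39.7% at Day8. Slc25a1, the carrier that exports mitochondrial citrate for Acly, read 181, 182 and 185 TPM in Control, 144, 136 and 144 at MCE1, 547, 612 and 574 at Day4 and 1022, 995 and 916 at Day8. It fell at MCE1 (-0.37, SE 0.051, adjusted p = 1.82e-05) and was higher from MCE2 onwards, by 2.41 at Day8. Pyruvate carboxylase (Pcx), which replenishes the oxaloacetate used for citrate, rose by 5.08 at Day8, from 25.7 ± 2.17 to 900.1 ± 66.3 TPM, the acetyl-CoA synthetase Acss2 by 2.50 and the cytosolic malate dehydrogenase Mdh1 by 2.45. The 2 genes lower at Day8 were mitochondrial malic enzymes, Me2 (-1.12) and Me3, both named after their values were seen. Me3 read 1.22, 1.21 and 1.31 TPM in Control and reached 1 TPM in no other library, so it passed the filter on low values only through the group where it was high, and its call is not a result. Without Me3, 7 of 9 genes were higher and 2 lower at MCE2, and 7 were higher and 1 lower at Day8 (median 1.41). Leaving out any 1 Control library took Me3 below the filter.

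Other elongases, desaturases and enzymes of the elongation cycle were a list of 18 genes, of which 14 were tested. At MCE2, 5 were higher than in Control and 7 lower, and at Day8 5 were higher, 5 lower and 4 not called, with a median change of 0.10. The Day8 counts lie near the shares of all tested genes (31.7% higher and 39.7% lower). At MCE2 those shares were 23.4% higher and 39.1% lower. Median-ratio scaling made the Day8 split 7 higher and 3 lower, and quantile normalization 7 and 5. Over all tested genes these scalings gave 4606 higher and 4470 lower, and 4288 and 4855, rather than 4025 and 5036. At Day8 the largest changes were those of Scd3 (4.29), the elongation-cycle dehydratase Hacd2 (2.87), the very-long-chain elongase Elovl4 (-1.93) and cytochrome b5 (Cyb5a, 1.80), the electron donor of the desaturases. Scd3, another stearoyl-CoA desaturase gene of the cluster that holds Scd1 and Scd2, read 0.203, 0.452 and 0 TPM in Control and 20.8, 23.4 and 23.6 at Day8, so that its TPM stayed far below that of Scd1. Of its 50-base stretches 6.66% occur in other genes, Scd1 and Scd2 among them, and how much of its signal came from reads of Scd1 was not tested. Elovl5, which lengthens the products of Fads2, rose at MCE1 (0.56, SE 0.081, adjusted p = 2.19e-05) and was not called at Day8 (0.11, adjusted p = 0.224), though it was after median-ratio scaling (0.24) and quantile normalization (0.19).

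Proteins that act on the carboxylases or on malonyl-CoA were a list of 10 genes, 9 of them tested, of which 5 were higher and 1 lower at Day8 than in Control (median 0.46). Of all tested genes, 31.7% were higher and 39.7% lower in this comparison. Thrsp (Spot 14), a small protein linked to lipogenesis, was listed at 0 in 2 of 3 Control libraries and read 0.154 TPM in the other. It read 26.5, 25.1 and 24.7 TPM at MCE2, 626, 671 and 643 at Day4, 444, 514 and 463 at Day6 and 207, 203 and 226 at Day8. Thrsp was thus highest at Day4 and fell to Day6 (-0.45, SE 0.074, adjusted p = 0.000315) and again to Day8 (-1.16), while all 10 synthesis and desaturation genes rose from Day4 to Day6. Its relative Mid1ip1, which promotes polymerization of acetyl-CoA carboxylase, was higher at Day8 (0.81), as was malonyl-CoA decarboxylase (Mlycd, 2.51), while Prkab1, a subunit of the AMP-activated kinase that inhibits the carboxylases, was lower (-1.19). The kinase's other tested subunits did not share this fall. Mean TPM went from 9.89 in Control to 14.3 at Day8 for Prkab2 and from 14.5 to 20.4 for Prkag2. Prkaa1 read 61.1 and 59.7 TPM in these groups, and Prkag1 122 and 128.

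Transcription factors of lipogenesis and the proteins that process SREBP were a list of 15 genes, 14 of them tested. At MCE1, 3 were higher than in Control and 2 lower, at MCE2 6 and 3, and at Day8 8 and 3 (median 0.57). Of all tested genes, 22% were higher and 29.4% lower at MCE1, 23.4% and 39.1% at MCE2, and 31.7% and 39.7% at Day8. The number higher at MCE1 lies near that share. Srebf1, whose protein drives fatty acid synthesis genes, read 31.3, 32.8 and 32.9 TPM in Control, 64.7, 63.8 and 67.8 at MCE1 and 131, 134 and 127 at MCE2, and then 92.9, 102 and 95.7 at Day4 and 99.0, 81.6 and 78.9 at Day8. It rose from Control to MCE2 (1.98, SE 0.075, adjusted p = 1.78e-12), with a step from MCE1 of 0.99, fell from MCE2 to Day4 (-0.43) and was not called between Day4 and Day6 (-0.08), the step in which all 10 genes rose. Its protein and the processing of that protein were not measured, and a link between Srebf1 and the 10 genes was not tested. Srebf2, whose protein acts mainly on cholesterol genes, was lower than Control in each later group, by -1.36 at Day4 and -0.82 at Day8, and rose from Day4 to Day6 (0.34, SE 0.081, adjusted p = 0.00515).

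Insig1, which retains SREBP in the endoplasmic reticulum, fell from 109 ± 8.35 TPM in Control to 40.8 ± 2.32 at MCE1 (-1.40) and rose to 266 ± 7.42 at Day4 and 502 ± 30.6 at Day8. Nr1h3 (the liver X receptor alpha) read 3.14 ± 1.53 TPM in Control, 15.9 ± 4.69 at MCE2 and 77.2 ± 6.98 at Day6, and its Day8 libraries spread from 44.9 to 92.0 TPM (3.99). Cebpa, a factor of the mature fat cell, was 6.45 higher at Day8. Scap was called lower at Day8, where it was listed at 0 in 3 of 3 libraries, but its Control libraries read 7.04, 0 and 9.60 TPM, and the call ended without any 1 Day8 library. Mlxipl, the carbohydrate-responsive factor, was listed at 0 in all 18 libraries. So were the cholesterol synthesis genes Hmgcs1 and Pmvk, which cells in general use, so a listed 0 in these files does not show that a gene was not expressed.

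**Figure D4:**
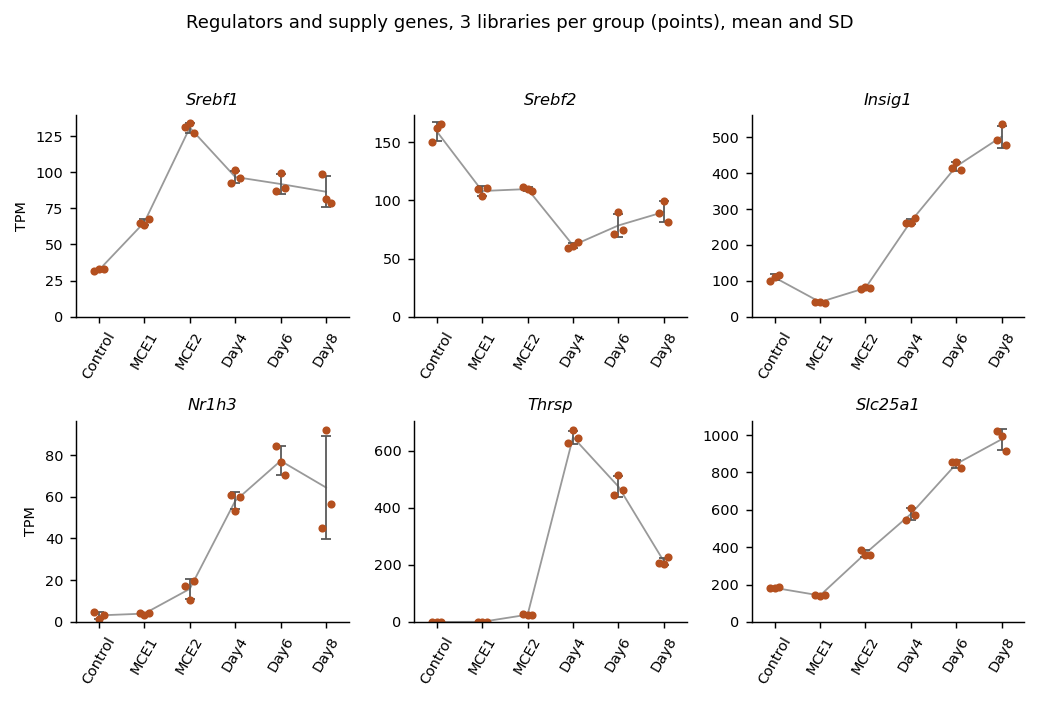
TPM (y axis, linear from 0, a scale of its own for each gene) of Srebf1, Srebf2, Insig1, Nr1h3, Thrsp and Slc25a1 in the 6 groups (x axis). Points are the 3 libraries of a group, the grey line joins group means and bars are ± 1 SD. Srebf1 is highest at MCE2 and Thrsp at Day4, while Insig1 and Slc25a1 are highest at Day8.

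Genes that activate fatty acids and assemble triglyceride, the step after synthesis, were a list of 10 with 9 tested. At MCE2, 6 were higher than in Control and 2 lower (median 2.19), and at Day8 6 were higher and 1, Acsl5, lower (-1.72, named after its value was seen), with a median of 3.20. Shares of all tested genes were 23.4% higher and 39.1% lower at MCE2, and 31.7% and 39.7% at Day8. The diacylglycerol acyltransferases Dgat2 (6.23) and Dgat1 (4.53), the acyl-CoA synthetase Acsl1 (5.99) and Agpat2 (3.75) changed most. Dgat2 stood at 5.63 ± 0.176 TPM in Control and 160.0 ± 2.41 at MCE2. Among the 10 synthesis and desaturation genes the called rises at MCE2 were those of Scd1 (2.37), Scd2 (1.10), Fasn (0.83) and Acacb (0.47).

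Cholesterol synthesis, which draws on the same acetyl-CoA, was a list of 20 genes with the LDL receptor, 18 of them tested. At MCE1, 17 were lower than in Control and 1, Hsd17b7 (0.71, named after its value was seen), higher, with a median of -0.81, and the largest falls were those of Msmo1 (-1.80), Fdft1 (-1.62) and Sc5d (-1.24). Of all tested genes, 29.4% were lower and 22% higher at MCE1 than in Control. Fads1, Fads2, Me1 and Elovl6 fell in the same comparison, while Scd1 rose. From Day4 to Day6, 14 of the 18 rose and 1, Cyp51, fell (-0.79), with a median of 0.53. Of all tested genes, 14.5% rose and 11.2% fell in this step. At Day8, 4 were higher than in Control, 10 lower and 4 not called (median -0.22), against 9 higher and 1 lower of the 10 fatty acid genes. Median-ratio scaling gave 5 higher and 7 lower there. Without that scaling, 31.7% of all tested genes were higher at Day8 than in Control and 39.7% lower. The scaling changed their numbers from 4025 higher and 5036 lower to 4606 and 4470.

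**Figure D5:**
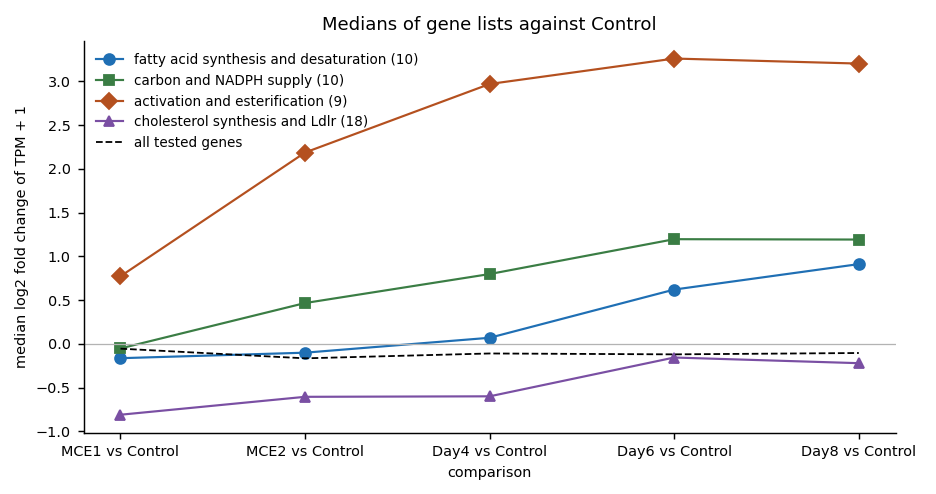
Median log2 fold change of TPM + 1 against Control (y axis) of the 10 fatty acid genes, of 3 further gene lists with the number of tested genes in brackets, and of all tested genes (dashed line), for the 5 later groups (x axis). The median of the 10 genes goes from -0.16 at MCE1 to 0.91 at Day8, that of the esterification genes is at 2.19 by MCE2, and that of the cholesterol genes is below 0 in all 5 groups.

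The labelled cell type was checked with marker genes. The summed TPM of 8 adipocyte markers was 124 to 137 in the Control libraries, with 5 of the 8 at 0 in all 3, and 28812 to 32226 at Day8. That of 8 fibroblast markers was 13921 to 14507 in Control, 7996 to 8122 at MCE2 and 13046, 13540 and 17708 at Day8. Its members went opposite ways, with 4 higher and 4 lower at Day8 than in Control: Col3a1 went from 453 ± 51.4 to 4831 ± 911 TPM, S100a4 from 4532 ± 126 to 495 ± 58.4 and Vim from 5403 ± 55.0 to 2248 ± 39.3, all 3 named after their values were seen. Of 8 macrophage markers 4 were listed at 0 in all 3 libraries of Control and of Day8, with sums of 16.4 to 19.7 and 10.1 to 11.4 TPM, and 0 of 6 endothelial markers passed the filter. The adipocyte marker sum was 18988 to 20009 TPM at Day4 and 32551 to 34920 at Day6, so it moved with the rise of the 10 genes between these groups, and its part in that rise was not tested. It did not from Day6 to Day8, where every Day8 marker sum lay below every Day6 one. In that step 2 markers rose and 3 fell, while the mean sum of the 10 genes went from 6295 to 8698 TPM. Across genes, which are not independent replicates, libraries of a group had a Pearson's r of 0.976 to 0.991 and those of different groups one of 0.811 to 0.976.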

How the data were processed

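The 18 libraries, 3 for each of 6 groups named in the sample titles, were used through the TPM per gene that the authors deposited. Per the submitters' processing notes, FastQC, cutadapt, HISAT2 and StringTie were used (no versions) with the mm9 build. The annotation is not given in the sources used here. Per the labels' protocols the RNA was poly(A)-selected, and the kit is not described as marking strand, so overlapping genes cannot be separated by it. Those listed over Acly, Scd2, Me1 and Fads1 had group means of at most 4.94 TPM. Listed values added up to between 869497 and 880273 TPM. Depth is unknown, so replicate spread sets the precision. Of 25209 genes, 12 were left out because Control replicate 1, whose table alone lacks a chromosome prefix, placed them elsewhere. A further 867 genes differed in start or end between tables and were kept, while the 10 genes of the report had the same position in every table. Whether all tables were made with 1 annotation is not known.

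A gene was tested if 3 or more libraries reached 1 TPM (12695 genes). The log2(TPM + 1) values of all 18 libraries entered 1 limma fit (version 3.58.1, R 4.3.3) with a mean for each group and trended, robust, 2-sided moderated tests on 12 residual and, at the median, 3.18 prior degrees of freedom. Adjustment was by Benjamini-Hochberg over all tested genes. The fit was also run on simulated data with independent noise and few changed genes. That run does not measure the error rate of the calls made here. Shares were compared by exact permutation. The members and lists were chosen with earlier results of these data known, so list counts are descriptions. Genes named from a further list were its 4 or fewer called genes of largest change, with Srebf1, Srebf2, Mlxipl, Nr1h3, Insig1, Thrsp, Slc25a1 and Elovl5 always allowed. Genes of like pattern were the 3 with the highest Pearson's r over group means. Promoter windows are RefSeq's (GRCm38.p6), and shared stretches were counted in GENCODE M21. Alternatives were another pseudocount (0.1), filter (none or 5 TPM), scaling (median-ratio or quantile) or moderation (plain), the replicate number as a block, a fit on 6 libraries, and each library left out. Software was Python 3.11.15 with pandas 2.3.3, numpy 2.4.6 and matplotlib 3.10.9.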

Additional observations from a re-analysis of the deposited data

How the results depend on the processing

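The number of the 10 genes called stayed within 1.5 times the main number in 165 of 165 recomputed counts. This bound is wide for counts that cannot pass 10, so it says little about stability. The addition of Acaca, Fads1 and Fads2 at Day6 against Control by median-ratio scaling counted as within it. Of 1400 changes of single genes under alternatives, 1350 kept direction and side of the threshold, 19 lost the call, 24 gained one and 7 changed sign. Leaving out each library gave 5 to 6 calls for MCE1, 8 for MCE2, 10 for Day4, 6 to 7 for Day6 and 9 to 10 for Day8 against Control, 5 to 6 from MCE1 to MCE2, 7 from MCE2 to Day4, 9 to 10 from Day4 to Day6, 5 to 8 from Day6 to Day8 and 9 from Day4 to Day8. The replicate number as a block called 7 of the 10 genes at MCE1 (6 without it, Acly added) and changed no other count. The labels do not say whether equal numbers pair libraries. Deviations of same-numbered libraries from their group means had r of -0.07 to 0.09, and 4 of 18 libraries correlated best with their own number. These values show no pairing, but cannot exclude that same-numbered libraries were made together.

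The 7 sign changes were Acly at Day6 against Control with median-ratio scaling (0.059), and with quantile normalization Acacb at MCE1 (0.13) and Fads1 at Day6 (-0.021) against Control and Elovl6 from MCE1 to MCE2 (0.045). Leaving out 1 library at a time gave -0.20 to 0.0024 for Acacb at MCE1, -0.0019 to 0.045 for Fads1 from MCE1 to MCE2 and -0.045 to 0.0017 for Fads1 from MCE2 to Day4. In each case neither value was called, and the cause was not tested. A fit on the 6 libraries of Day6 and Day8 alone called 1136 of all tested genes rather than 2761. Among the further lists, the number lower at Day8 was 1 rather than 2 supply genes with a filter of 5 TPM, and 2 rather than 1 esterification genes without Day8 replicate 2. TPM keeps no depth, so counting error is not separate from replicate spread, and changes of genes with few TPM, such as Acacb, are understated.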

Other observations

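Mitochondria make fatty acids by a separate pathway, whose product feeds lipoic acid, and 5 of its genes were measured. At Day8, 4 were higher than in Control and 0 lower, with a median change of 1.04 (31.7% of all tested genes were higher). Cbr4 changed by 1.56, the condensing enzyme Oxsm by 1.22, the malonyl transferase Mcat by 1.04 and the enoyl reductase Mecr by 0.40. Between Day4 and Day6, the step in which the 10 synthesis and desaturation genes of the report rose, 0 of these 5 passed limma's test (2 were higher at an unadjusted p under 0.05, and 1 was called without Day4 replicate 2), with a median of 0.16. Of all tested genes, 25.7% were called in this step and 14.5% were higher, so 0 of 5 is not far from these shares. Mecr was higher than Control already at MCE1 (0.66, SE 0.074, adjusted p = 1.47e-06).

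The 3 malic enzymes differed in level. Me1 went from 74.4 ± 3.05 TPM in Control to 232 ± 14.0 at Day8, and Me2, a mitochondrial form, from 30.5 ± 0.729 to 13.6 ± 1.42 (-1.12, SE 0.078, adjusted p = 2.06e-09). Me3 read 1.22, 1.21 and 1.31 TPM in Control and was listed at 0 in all 3 libraries of MCE1, Day6 and Day8, and it entered the test only through Control. The difference between these genes was not tested.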
